A study of Mus musculus with 36 samples.

Results

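The peroxisomal route of fatty acid breakdown was followed over the day in mouse liver through 8 genes, Pex11a, Ehhadh, Acaa1a, Acaa1b, Ech1, Eci2, Hacl1 and Crat. They were chosen by name, with earlier results of these data known. Each was measured by its only probe set that the platform annotation pairs with that gene alone. All 8 were found, of 19938 genes with such a probe set. Livers came from C57BL/6J mice, an inbred laboratory strain, aged 16 weeks. They had eaten a high fat diet, with 60% of calories from fat, or normal chow for 10 weeks. All animals fed ad libitum under 12 h of light and 12 h of dark, and livers were taken at 4 h steps from ZT0 to ZT20, with Zeitgeber time (ZT) in hours after the lights came on. Each of the 6 times had 3 high fat diet and 3 chow samples, 1 array each, which makes 36 samples in 12 groups. Nothing in the labels beyond a replicate number says how the samples of a group were separated, and the p-values cover only the spread among them, which may be technical. Neither the animals' sex nor the makeup of the chow is given in the labels used here.

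Peroxisomes shorten very long chain, branched and dicarboxylic fatty acids that mitochondria handle poorly, and pass the shortened chains and acetyl groups on to mitochondria. In the core cycle the opening step makes hydrogen peroxide, a bifunctional enzyme such as the product of Ehhadh hydrates and oxidises the chain, and a thiolase such as those of Acaa1a and Acaa1b cuts it. In rodent liver many of these genes are classical targets of PPARA, the nuclear receptor for fatty acids and fibrate drugs, and Pex11a takes part in the elongation and division of peroxisomes.

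Promoter sequences are shown for 3 genes that differed in how they stood between the diets: Pex11a, which rose on average, Ehhadh, with no call on average, and Hacl1, whose difference changed sign over the day. They are RefSeq sequences of build GRCm38.p6, 250 bases before to 50 bases after the gene start, in the gene's own direction. Capitals mark the CCAAT box, read as CCAAT or, on the opposite strand, ATTGG; Pex11a has none.
Pex11a, chr7:79743082-79743381, strand minus: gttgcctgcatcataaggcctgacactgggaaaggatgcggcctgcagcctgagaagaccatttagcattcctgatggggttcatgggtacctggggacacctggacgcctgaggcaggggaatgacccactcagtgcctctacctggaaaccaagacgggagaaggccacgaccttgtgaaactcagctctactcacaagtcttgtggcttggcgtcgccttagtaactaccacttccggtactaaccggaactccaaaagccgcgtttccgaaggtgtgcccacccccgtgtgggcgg
Ehhadh, chr16:21787785-21788084, strand minus: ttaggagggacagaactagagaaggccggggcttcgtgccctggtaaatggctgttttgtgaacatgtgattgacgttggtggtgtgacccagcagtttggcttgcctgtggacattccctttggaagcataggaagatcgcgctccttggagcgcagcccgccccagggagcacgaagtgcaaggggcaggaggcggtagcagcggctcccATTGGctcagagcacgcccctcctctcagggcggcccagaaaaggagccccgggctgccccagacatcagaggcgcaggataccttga
Hacl1, chr14:31640916-31641215, strand minus: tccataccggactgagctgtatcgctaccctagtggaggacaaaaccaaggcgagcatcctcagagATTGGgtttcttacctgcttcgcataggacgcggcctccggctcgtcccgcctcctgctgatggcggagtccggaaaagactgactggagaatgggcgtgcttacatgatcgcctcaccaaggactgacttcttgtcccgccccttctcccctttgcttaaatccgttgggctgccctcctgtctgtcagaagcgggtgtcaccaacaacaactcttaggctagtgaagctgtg
Of the 8 genes, 7 had such a window. The nuclear receptor motif AGGTCA, searched on both strands, was in 0 of these 7 windows and in 16.3% of 32851 mouse promoter windows of the same length. A direct repeat of 2 copies of AGGNCA with 1 base (N) between them, a loose form of the element bound by PPARA with its partner RXR, was in 0 of 7 and in 0.381% of all windows, and the E-box CACGTG in 0 of 7 and 7.15%. A CCAAT box was in 5 of 7 windows, against 37.4% of all, and Ech1, like Pex11a, had none. No match says only that these letters are not in this window.

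Values are deposited linear intensities of a probe set, and differences are high fat diet minus chow on the scale of log2(intensity + 16), with the standard error (SE) of a limma fit to 13956 genes. A gene was called at a Benjamini-Hochberg adjusted p under 0.05 over all these genes. Intensities of different probe sets depend on their probes and are not compared. Array medians ran from 75.7 to 95.6, and the median over all genes of the average diet difference was 0.02. Hepatocyte markers were bright, with a sum over 6 genes of 47890 to 55230 in the high fat diet samples and 48650 to 57060 in the chow samples, and 3 of the 6 fell on high fat diet and 0 rose. Of 11 Kupffer cell and macrophage markers 7 rose on high fat diet and 0 fell, and their sum ran from 3338 to 7687 there and from 2234 to 5863 on chow. Among 7 adipocyte markers with a probe set, Adipoq and Lep were below the intensity filter. Cidec, Fabp4 and Slc2a4 rose, and Plin1 and Retn were not called. Sums of the list ran from 419.9 to 1166 on high fat diet and from 406.1 to 614.7 on chow. Stellate cell markers had 3 of 8 higher and 0 lower (Reln, Lrat and Dcn). T cell, B cell and neutrophil markers had 2 of 5 higher and 0 lower (Cd4 and Ptprc). Endothelial markers had 1 of 9 lower (Tie1) and bile duct markers 1 of 3 higher (Pkhd1). Over all genes tested 11.2% were called higher on high fat diet and 9.80% lower. The part of these cell types in the results below was not tested, and in bulk liver fewer cells of a type and less RNA per cell cannot be told apart. On replicate 3 of high fat diet at ZT0, 7 of the 8 genes were the lowest of their group, with a median deviation of -0.33 from the group mean, where all genes had -0.03. On replicate 1 of that group 7 of the 8 were the highest, with a median deviation of 0.26, where all genes had 0.02. Deviations were smaller on the other 2 arrays with 7 of 8 at one end, replicate 3 of chow at ZT16 (7 lowest, -0.16, where all genes had -0.03) and replicate 3 of chow at ZT8 (7 highest, 0.14, where all genes had 0.02).

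The first comparison asked how the 8 genes differed between the diets over the whole day. On high fat diet 4 of them rose, Crat, Pex11a, Ech1 and Eci2, by between 1.12- and 1.38-fold, and 1, Hacl1, fell slightly. Ehhadh, Acaa1a and Acaa1b were not called. Over all 13956 genes 21.0% were called, 11.2% as higher and 9.80% as lower on high fat diet. The median of the 8 differences was 0.14. After median centring of the arrays the split over all genes was 827 higher and 1926 lower instead of 1570 and 1367, and the 8 genes still counted 4 higher and 1 lower. Quantile normalization gave 4 higher and 0 lower among the 8. Without replicate 3 of high fat diet at ZT0 the count stayed at 5 called.

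**Figure D1:**
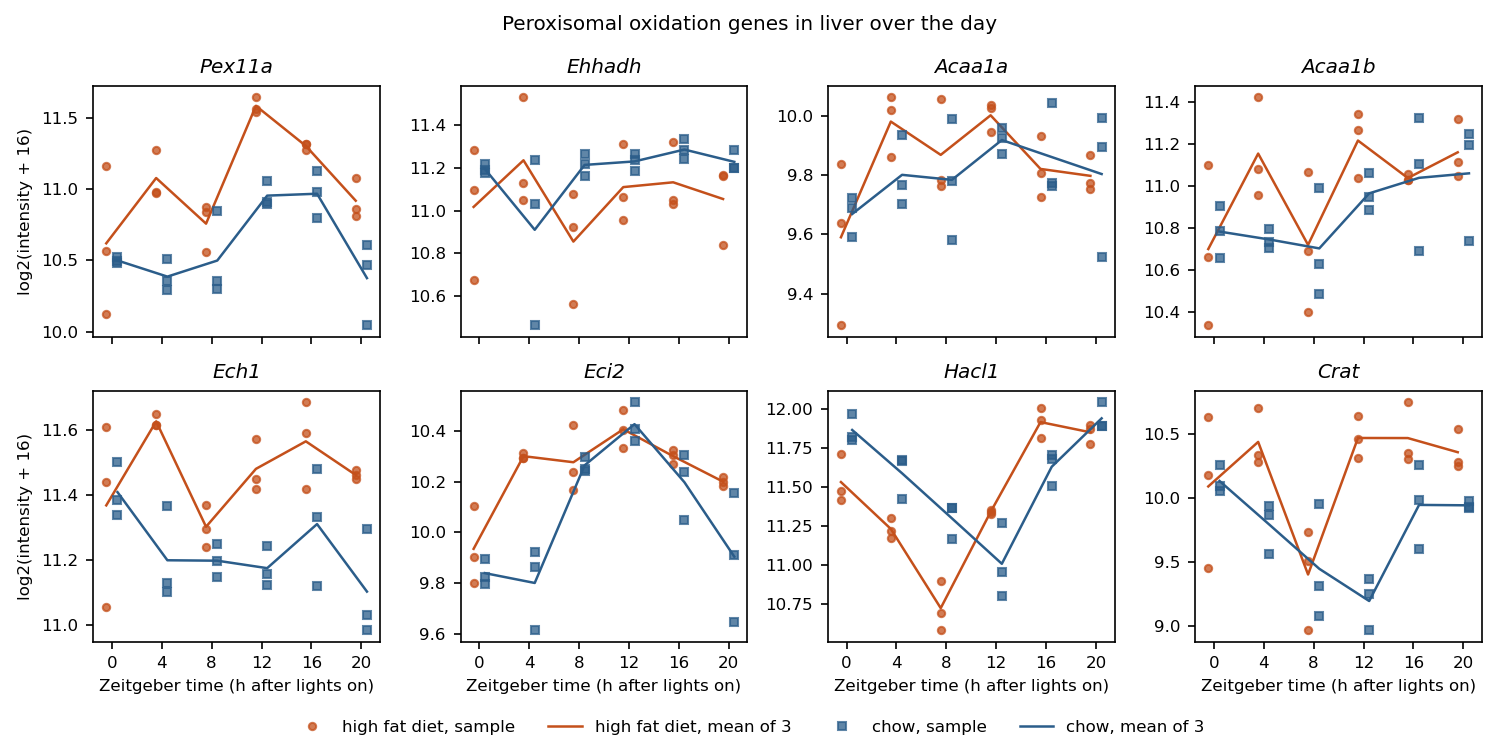
Each panel plots 1 gene, with Zeitgeber time in hours on the x axis and log2(intensity + 16) on a y axis of its own. Circles are high fat diet samples and squares chow samples, 3 per time, drawn slightly left and right of the harvest time, and lines join the group means. Pex11a has the higher mean on high fat diet at all 6 times (at ZT0 not after median centring). The lines of Hacl1 cross between ZT8 and ZT12 and again between ZT16 and ZT20.

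Pex11a, a membrane protein of peroxisome division, was the 1 gene of the 8 with the same sign at all 6 times, as for 14.3% of all genes. Its ZT0 difference of 0.12 was -0.01 after median centring and -0.15 without replicate 1 of high fat diet at ZT0, so the sign at ZT0 rests on that scaling and that array. At ZT0 its intensities were 2276, 1503 and 1104 on high fat diet, against 1411, 1431 and 1455 on chow. At ZT4 they were 2459.7, 2007 and 1996 on high fat diet, against 1295, 1441 and 1242 on chow. The ZT0 groups overlapped, with high fat diet samples that were far apart, while at ZT4 each high fat diet sample was above every chow sample. At ZT8 the values were 1859.9, 1495 and 1815 on high fat diet, against 1296, 1242 and 1822 on chow. At ZT12 the values were 2966, 3177 and 3007 on high fat diet, against 2116, 1889 and 1904 on chow. The groups overlapped at ZT8 and were well apart at ZT12. At ZT16 the samples had 2464, 2526 and 2534 on high fat diet, against 2219, 2003 and 1761 on chow. At ZT20 the samples had 1785, 1846 and 2144 on high fat diet, against 1404, 1549 and 1042 on chow, so that the groups did not overlap at ZT4, ZT12, ZT16 and ZT20. The average difference was 0.43 ± 0.07 (adjusted p = 2.27e-05), a 1.35-fold rise, and 0.38 to 0.48 over 47 alternatives, with the call kept in each. At single times it was called at ZT4 (0.69 ± 0.17, adjusted p = 0.0138) and ZT12 (0.63 ± 0.17, adjusted p = 0.0228). The ZT4 call was lost without replicate 3 of chow (adjusted p = 0.0505) or replicate 1 of high fat diet (0.113) at that time. The ZT12 call was lost without replicate 2 or 3 of either diet (0.061 to 0.1).

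Ehhadh, whose bifunctional enzyme carries out the middle steps of the cycle, was not called on average. Its lowest, median and highest values were 1496, 2135 and 2944 over the 18 high fat diet samples, against 1394, 2369 and 2567 over the 18 chow samples. The difference was -0.11 ± 0.06, with an interval of -0.24 to 0.02 at 95% and an adjusted p of 0.244. Its difference was negative at 5 of 6 times. At ZT8 its samples had 1925, 1496 and 2147 on high fat diet, against 2275, 2366 and 2443 on chow. At ZT20 they had 1814, 2273 and 2281 on high fat diet, against 2479.6, 2337 and 2339 on chow. At these 2 times every high fat diet sample was below every chow sample, yet the differences of -0.36 ± 0.16 and -0.17 ± 0.16 were not called (adjusted p = 0.45 and 0.696). Array weights called ZT8 (0.0437), and without replicate 1 of high fat diet at ZT20 that time's difference was -0.066. At ZT4 the difference had the other sign, 0.33 ± 0.16 (adjusted p = 0.284), and replicate 2 of chow, at 1394, was the lowest of all 36 samples for this gene. Without that array the ZT4 difference was 0.10.

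Acaa1a and Acaa1b encode the peroxisomal thiolases A and B of rodents, which release acetyl-CoA in the last step. For Acaa1a the lowest, median and highest values were 612, 906 and 1053 over the 18 high fat diet samples, against 721, 862 and 1039.8 over the 18 chow samples. Its difference was 0.04 ± 0.05 (interval at 95%, -0.06 to 0.14, adjusted p = 0.659), and its groups overlapped at all 6 times. Acaa1b varied more. Its lowest, median and highest values were 1275, 2106 and 2728 over the 18 high fat diet samples, against 1417, 1816 and 2545 over the 18 chow samples. The average difference was 0.12 ± 0.07 (interval at 95%, -0.03 to 0.26, adjusted p = 0.278). At ZT4 alone the Acaa1b groups did not overlap, with 2728, 2151 and 1973 on high fat diet, against 1760.2, 1684 and 1654 on chow, but the difference of 0.41 ± 0.18 was not called (adjusted p = 0.211). With limma's array weights the average of Acaa1b was called (adjusted p = 0.0189). The thiolase genes are close paralogs, and how far each probe set also reads the other gene is unknown here.

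Ech1 and Eci2 encode isomerases that move double bonds of unsaturated fatty acids so that they can enter the cycle, and both rose. Ech1 had samples whose lowest, median and highest values were 2111, 2789 and 3274 over the 18 high fat diet samples, against 2009.7, 2369 and 2883 over the 18 chow samples. It rose by 0.23 ± 0.04 (adjusted p = 0.000174), or 1.18-fold, and the call was kept in all 47 alternatives. The widest gap was at ZT4, with 3119, 3192 and 3117 on high fat diet, against 2183, 2622 and 2223 on chow. That was the 1 time at which Ech1 was called (0.43 ± 0.11, adjusted p = 0.0183). Leaving out any 1 of 5 of those 6 arrays, all but replicate 2 of chow, lost the call (adjusted p from 0.0551 to 0.0835). At ZT12 and ZT20 the groups were also apart, with 2778, 3027 and 2722 on high fat diet, against 2214, 2409 and 2268 on chow, and 2801, 2831 and 2776 on high fat diet, against 2009.7, 2495 and 2075 on chow. Neither time was called (adjusted p = 0.0961 and 0.0759), but both passed after quantile normalization (0.0159 at ZT12 and 0.00862 at ZT20) and with array weights (0.0466 and 0.022), and ZT12 without replicate 3 of high fat diet at ZT0 (0.0451).

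Eci2 rose by 0.17 ± 0.04 (adjusted p = 0.00318), the smallest of the 4 rises, and kept the call in all 47 alternatives. Its lowest, median and highest values were 874, 1229 and 1414 over the 18 high fat diet samples, against 767, 1083 and 1446 over the 18 chow samples. Its differences were largest at 2 times of day. At ZT4 the samples had 1239, 1256 and 1240.5 on high fat diet, against 915, 767 and 955 on chow. At ZT20 they had 1146, 1158 and 1176 on high fat diet, against 947, 1123 and 785 on chow. At both times each high fat diet sample was above every chow sample, and ZT4 was called (0.50 ± 0.10, adjusted p = 0.00227) in all 47 alternatives, while ZT20 was not (0.30 ± 0.10, adjusted p = 0.129). At ZT12 the values were nearly equal, 1274, 1414 and 1339.9 on high fat diet, against 1299, 1446 and 1342 on chow (-0.02 ± 0.10, adjusted p = 0.96).

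Hacl1 encodes a hydroxyacyl-CoA lyase that removes a single carbon in the alpha oxidation of phytanic acid, a branched fatty acid of plant origin in the diet, and of hydroxy fatty acids. It fell on high fat diet at the 3 times of the light phase, while at ZT12 and ZT16 the difference was positive and not called. At ZT0 its intensities were 2717, 3334 and 2825 on high fat diet, against 3564, 3613 and 3999.6 on chow. At ZT4 the samples had 2514, 2364 and 2294 on high fat diet, against 3242, 2729 and 3255 on chow. At ZT8 they had 1637, 1516 and 1889.7 on high fat diet, against 2281, 2619 and 2629 on chow. At each of these 3 times every high fat diet sample was below every chow sample. The order was then turned. At ZT12 the samples had 2559, 2575 and 2599.8 on high fat diet, against 1769.9, 1967 and 2448 on chow. At ZT16 they had 3592, 4096 and 3892 on high fat diet, against 3274, 3321 and 2892 on chow. At both times all high fat diet samples were above all chow samples. At ZT20 the groups overlapped, with 3812, 3744 and 3497 on high fat diet, against 3779.9, 4210.0 and 3783 on chow.

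The differences of Hacl1 were -0.34 ± 0.10 at ZT0, -0.36 ± 0.10 at ZT4 and -0.58 ± 0.10 at ZT8, each called (adjusted p = 0.0441, 0.0457 and 0.00224). They were 0.33 ± 0.10 at ZT12 and 0.29 ± 0.10 at ZT16, short of a call (adjusted p = 0.0525 and 0.168). The ZT12 difference passed in 12 of 47 alternatives, among them without replicate 2 of high fat diet at ZT0, 2 or 3 of high fat diet at ZT8, or replicate 2 of chow at ZT4, 1 at ZT8 or 3 at ZT12 (0.00965 to 0.0495). An F test that the diet difference is the same at all 6 times called Hacl1 alone among the 8 genes (adjusted p = 0.00118, and at most 0.00467 over 47 alternatives), where 0.631% of all genes were called. Differences of opposite sign partly cancel in the average, which was -0.12 ± 0.04 (adjusted p = 0.0347). That average lost its call after quantile normalization (adjusted p = 0.0725) and without any 1 of 13 arrays (0.0519 to 0.0628). The 13 were replicates 1 of high fat diet at ZT0 and ZT16, 2 at ZT8, and 3 at ZT4 and ZT20, and in chow 3 at ZT0, 1 and 3 at ZT4, 2 and 3 at ZT8, 3 at ZT12, and 2 at ZT16 and ZT20. The ZT8 call was kept in all 47 alternatives. The ZT0 call was lost without any 1 of 8 arrays (0.0502 to 0.193), which include 5 of the 6 at that time, all but replicate 2 of high fat diet, and replicates 2 at ZT4, 1 at ZT8 and 3 at ZT16 of high fat diet. It was also lost with no filter on dim genes (0.0558) and with array weights (0.0523). The ZT4 call was lost without any 1 of 17 arrays (0.0504 to 0.147), 5 of them from ZT4 itself, where it held without replicate 2 of chow. It was also lost after quantile normalization (0.0569), with no filter on dim genes (0.0678) and with an offset of 1 (0.0514). The other 12 arrays were replicates 1 at ZT8, 1, 2 and 3 at ZT12, 2 and 3 at ZT16, and 1 and 3 at ZT20 of high fat diet, and 2 at ZT0, ZT8 and ZT12 and 1 at ZT20 of chow.

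Crat encodes carnitine acetyltransferase, an enzyme of peroxisomes and mitochondria that moves acetyl groups from CoA to carnitine for transport. It had the largest average difference of the 8, 0.46 ± 0.09 (adjusted p = 0.000388), or 1.38-fold, called in all 47 alternatives. At ZT0 its samples had 1575, 1146 and 685 on high fat diet, against 1047, 1206 and 1076 on chow. At ZT4 they had 1650.5, 1227 and 1274 on high fat diet, against 919.9, 967 and 741 on chow. At ZT8 the intensities were 711, 484 and 836 on high fat diet, against 524, 618 and 976 on chow. The groups overlapped at ZT0 and ZT8, and at ZT0 high fat diet samples were both the highest and the lowest of the 6. At ZT12 the samples had 1253, 1392 and 1578 on high fat diet, against 592, 485 and 645 on chow. At ZT16 they had 1249, 1704 and 1292 on high fat diet, against 1208, 995 and 760.1 on chow. At ZT20 the samples had 1202, 1231 and 1473 on high fat diet, against 989, 956 and 961 on chow. At ZT4, ZT12, ZT16 and ZT20 every high fat diet sample was above every chow sample. The ZT12 difference of 1.27 ± 0.23, 2.42-fold, was called (adjusted p = 0.000616) in all 47 alternatives, and the differences of 0.65 ± 0.23 at ZT4, 0.52 ± 0.23 at ZT16 and 0.41 ± 0.23 at ZT20 were not (adjusted p = 0.108, 0.291 and 0.436). Array weights called ZT4 (0.0313) and ZT16 (0.0172). The F test over times did not call Crat (adjusted p = 0.129), except with array weights (0.0181) or without replicate 1 of high fat diet at ZT0 (0.0346).

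**Figure D2:**
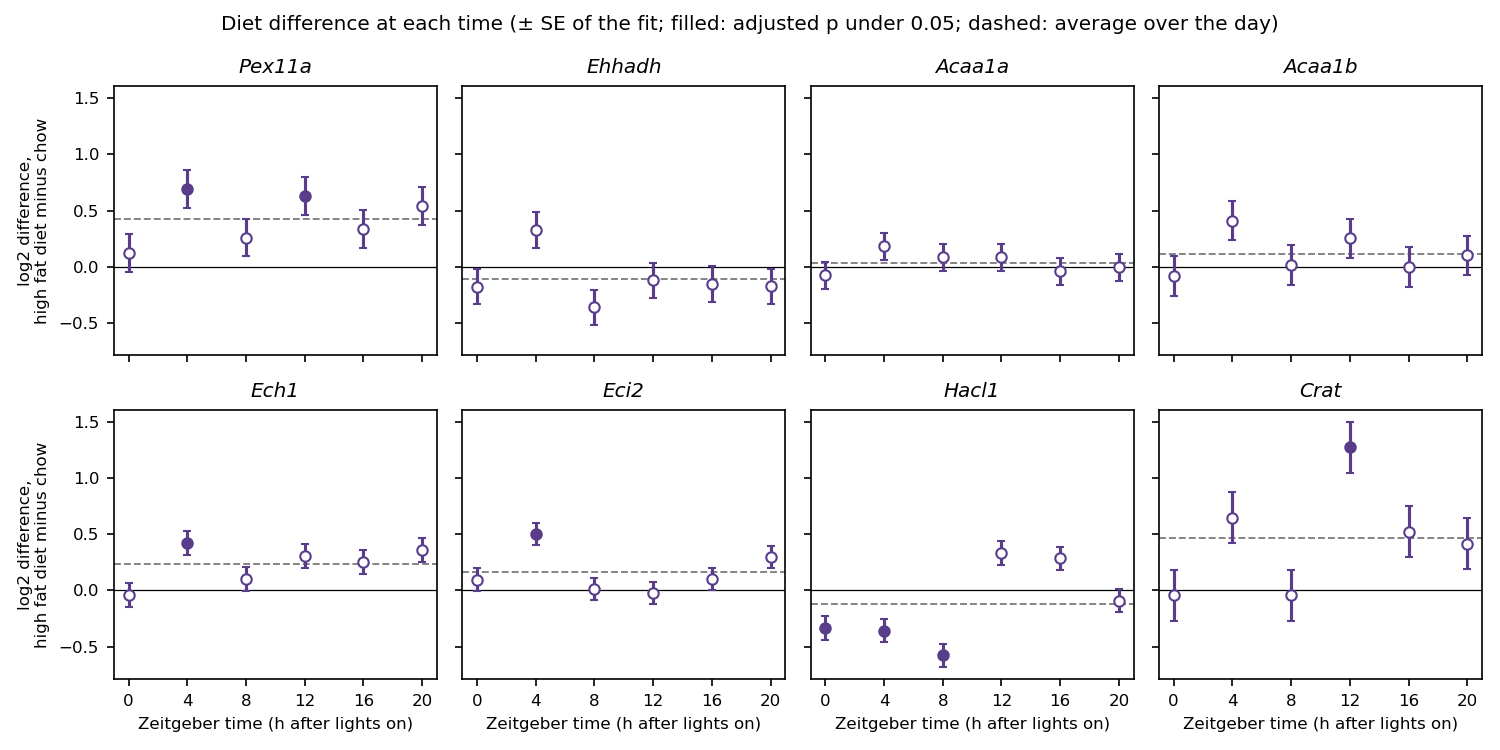
Each panel plots 1 gene, with Zeitgeber time in hours on the x axis and the log2 difference, high fat diet minus chow, on a shared y axis. Points are differences of 3 and 3 samples with the SE of the fit, filled where the adjusted p was under 0.05, and the dashed line is the average over the day. ZT4 has 4 filled points, Pex11a, Ech1, Eci2 and Hacl1, and the Crat point at ZT12 is the highest.

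The second comparison set the times of day side by side. At ZT4 4 of the 8 genes were called, Pex11a, Ech1 and Eci2 as higher and Hacl1 as lower, where 3.69% of all genes were called, 2.29% as higher and 1.40% as lower. At ZT12 2 were called, Pex11a and Crat, both as higher, against 5.44% of all genes called and 2.47% called higher. ZT0 and ZT8 had 1 each, Hacl1 as lower, against 7.12% of all genes called and 3.75% called lower at ZT0, and 0.774% and 0.494% at ZT8. ZT16 and ZT20 had 0 of 8 by limma, against 2.22% and 2.04%. At an unadjusted p under 0.05, ZT16 had 3, Ech1, Hacl1 and Crat, against 13.2% of all genes, and ZT20 had 3, Pex11a, Ech1 and Eci2, against 13.5%. Array weights called 3 genes at ZT16, Ech1 (0.00863), Hacl1 (0.013) and Crat (0.0172), and 2 at ZT20, Pex11a (0.0183) and Ech1 (0.022). At ZT8 they called Ehhadh, Acaa1a (0.048) and Pex11a (0.0293) beside Hacl1. The 3 at ZT20 passed after adjustment when 1 array was left out, Pex11a and Ech1 without replicate 1 or 3 of high fat diet at ZT0, and Ech1 and Eci2 without replicate 2 of chow at ZT20 (0.0208 to 0.0484). High fat diet samples all lay above chow samples for 5 genes at ZT4, 4 at ZT12, 3 at ZT16 and 4 at ZT20, and for 0 at ZT0 and ZT8. The share of all genes that did so was 11.6% at ZT4, 11.7% at ZT12, 9.64% at ZT16, 8.99% at ZT20, 14.9% at ZT0 and 7.08% at ZT8. In the other direction, all high fat diet samples lay below all chow samples for Hacl1 at ZT0, ZT4 and ZT8 and for Ehhadh at ZT8 and ZT20. The share of all genes that lay below in this way was not computed. At ZT0 replicates 1 and 3 of high fat diet stood far apart, as given above.

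The third comparison asked which of the genes follow a daily wave on each diet. A cosine of 24 h was fitted per diet, and its amplitude, in log2 units, is its height above the mean. On high fat diet 3 of the 8 were called rhythmic, Hacl1, Pex11a and Eci2, against 11.0% of all genes. On chow 4 were called, the same 3 genes and Crat, against 20.6%, and 8.20% of all genes were called on both. Ehhadh, Acaa1a, Acaa1b and Ech1 were called on neither diet, with adjusted p-values from 0.180 to 0.954 on high fat diet and from 0.187 to 0.830 on chow. The difference of the wave between the diets was called for 0 of the 8 genes by limma and for 1, Hacl1, at an unadjusted p under 0.05. The shares of all genes were 0.0287% and 8.32%.

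Hacl1 had the largest waves, with an amplitude of 0.54 on high fat diet (adjusted p = 1.46e-08) and 0.43 on chow (adjusted p = 8.32e-07). From trough to peak of the wave that is 2.12-fold on high fat diet and 1.83-fold on chow. The fitted peak was at ZT19.0 on high fat diet and ZT22.2 on chow, 3.21 h earlier on high fat diet. The trough among the 6 times was at ZT8 on high fat diet, where the mean was 1681 ± 191 (SD, n = 3), and at ZT12 on chow, where it was 2062 ± 349 (SD, n = 3). In high to low order of mean log2 the groups ran ZT16, ZT20, ZT0, ZT12, ZT4 and ZT8 on high fat diet and ZT20, ZT0, ZT16, ZT4, ZT8 and ZT12 on chow. Neighbours in that order differed by less than the larger of their SDs for ZT16 and ZT20 on high fat diet, and for ZT20 and ZT0 and for ZT16 and ZT4 on chow. The test of the wave difference gave Hacl1 an adjusted p of 0.0632, just short of a call, and between 0.00840 and 0.133 over 47 alternatives, 15 of which called it.

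Pex11a and Eci2 peaked around the change from light to dark on both diets. Pex11a had an amplitude of 0.35 with a peak at ZT13.2 on high fat diet, and of 0.30 with a peak at ZT13.7 on chow (adjusted p = 0.0162 and 0.0316). Its highest mean log2 was at ZT12 on high fat diet, above ZT16 by more than the SDs, and on chow ZT16 and ZT12 differed by less than that. Eci2 had an amplitude of 0.17 peaking at ZT11.5 on high fat diet, and of 0.32 peaking at ZT12.1 on chow (adjusted p = 0.0254 and 6.9e-06). The difference in its wave was not called (adjusted p = 0.612). The high fat diet calls of Pex11a and Eci2 rested on single arrays. Without replicate 3 of high fat diet at ZT0 the adjusted p-values were 0.0726 and 0.114, and without replicate 2 at ZT12 they were 0.0526 and 0.0644. Eci2 also lost its call without replicate 2 at ZT0 (0.0899) and after median centring (0.0503). On chow, Pex11a lost its call without any 1 of 7 arrays (0.0501 to 0.0725), replicates 1 and 3 at ZT4, all 3 at ZT12, and 1 and 2 at ZT16, and also after median centring (0.0519) and without the 4 arrays of lowest weight (0.0508).

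Crat had a chow wave of 0.41 that peaked at ZT22.2 (adjusted p = 0.0297), a call lost without any 1 of 5 chow arrays (0.0549 to 0.0825), replicate 2 at ZT0, and 1 and 2 at ZT8 and ZT12. On high fat diet its fitted amplitude was 0.29 with an adjusted p of 0.265, and the difference between the waves was not called (adjusted p = 0.698). An F test of any change among the 6 times, added after the data were seen, called Crat on both diets (adjusted p = 0.0039 on high fat diet and 0.0156 on chow), beside Hacl1, Pex11a and Eci2, where it called 16.8% of all genes on high fat diet and 21.0% on chow. In high to low order of mean log2 the Crat groups ran ZT12, ZT16, ZT4, ZT20, ZT0 and ZT8 on high fat diet, where, of neighbours, only ZT0 and ZT8 differed by more than the larger SD. On chow they ran ZT0, ZT16, ZT20, ZT4, ZT8 and ZT12, with no neighbours that far apart. ZT12 held the lowest mean on chow, and on high fat diet ZT12 and ZT16 were level at 10.47.

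Over the 12 group means, the 28 pairs of the 8 genes had Pearson correlations from -0.542 to 0.795, with a median of 0.3, as a description of profiles measured on the same arrays. Ech1 and Crat were the most alike (0.795), followed by Pex11a and Eci2 (0.772), and Eci2 and Hacl1 were the most unlike (-0.542). Acaa1a and Acaa1b correlated at 0.648. The genes outside the 8 whose group means were most like the mean profile of all 8, each gene standardised, were Acss3 (0.966), Acaca (0.944), Myo1d (0.936), Tmem98 (0.932) and Slc16a7 (0.905), of 13956 tested. The gene most like each single member was Gpat3 for Pex11a (0.937), Snx5 for Ehhadh (0.858), Pole3 for Acaa1a (0.922), Tusc3 for Acaa1b (0.936), Dhrs4 for Ech1 (0.980), Acad10 for Eci2 (0.929), Zdhhc13 for Hacl1 (0.957) and Hsdl2 for Crat (0.973). Each is the highest of all genes tested over 12 points.

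The other genes of the pathway were read from 5 lists for the average diet difference, where 11.2% of all genes rose and 9.80% fell. The lists were drawn up with earlier results of these data known, so their counts are a description and not independent support. Of 26 tested genes of peroxisomal oxidation beyond the 8, 13 rose and 3 fell, with a median of 0.11. Acnat2, of a family of acyltransferases that join fatty acids to amino acids, rose by 1.35 ± 0.13 (adjusted p = 5.68e-09), and Abcd2, a transporter of fatty acyl-CoA into peroxisomes, by 1.35 ± 0.22 (adjusted p = 2.45e-05). Hsd17b4, the second bifunctional enzyme of peroxisomes, rose by 0.18 ± 0.03, beside 0.19 ± 0.03 for the peroxisomal protease gene Lonp2. Nudt7, which hydrolyses CoA and its esters in peroxisomes, fell by 0.35 ± 0.07 (adjusted p = 0.000267), the CoA transporter gene Slc25a17 by 0.20 ± 0.04 and the oxidase gene Acox3 by 0.13 ± 0.04. After median centring 10 of these genes rose and 3 fell.

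Of 17 genes of peroxisome assembly and division 5 rose and 1 fell, with a median of 0.07. Pxmp4, Pex19, Pex7 and Pex16, of which Pex19 and Pex16 serve membrane protein insertion and Pex7 the import of the thiolases, rose by between 0.12 and 0.20, and Pex26 fell by 0.18 ± 0.05. Among 14 other peroxisomal enzymes 4 rose and 0 fell, with a median of 0.06, namely Gstk1 (0.28 ± 0.05), the epoxide hydrolase Ephx2 (0.24 ± 0.04), Dhrs4 (0.14 ± 0.03) and Ddo (0.17 ± 0.05). Of 26 mitochondrial and other PPARA targets 17 rose, 0 fell and 9 were not called, with a median of 0.23. The 4 with the smallest p were Cpt1a, which lets fatty acids into mitochondria (0.46 ± 0.03), the lipid droplet coat gene Plin2 (0.54 ± 0.04), Etfdh (0.24 ± 0.03) and the pantetheinase gene Vnn1 (1.26 ± 0.15). Of 10 receptors and cofactors Ppara rose (0.46 ± 0.05, adjusted p = 3.12e-08) and Rxrb fell by 0.14 ± 0.04. Counts after median centring, where 827 of all genes rose instead of 1570, were not computed for the lists of this paragraph.

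**Figure D3:**
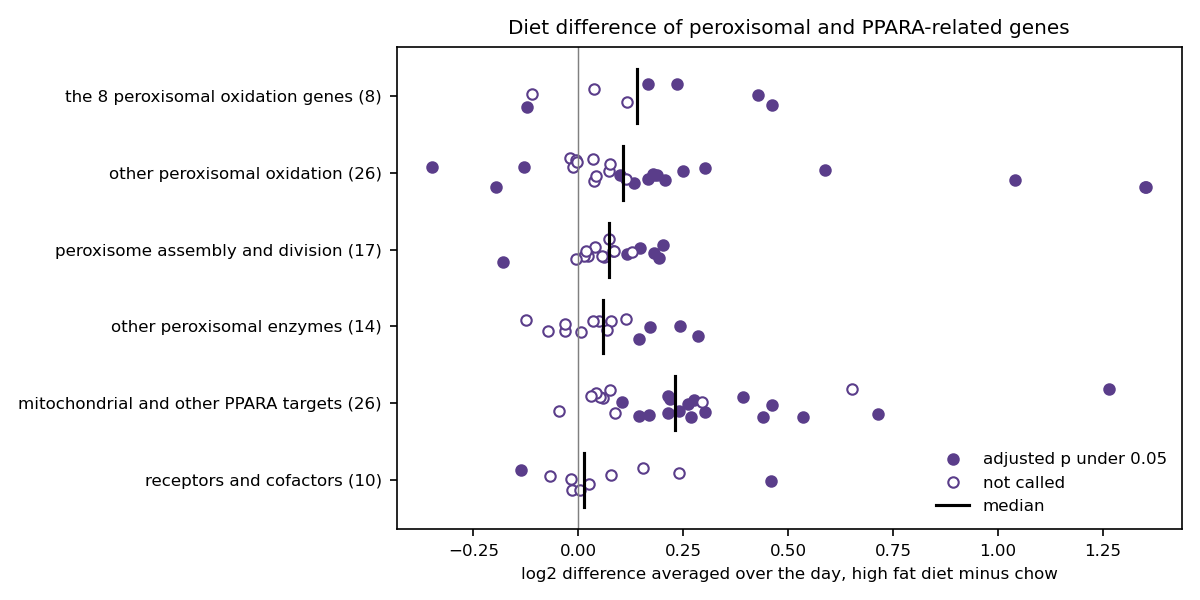
Each point is 1 gene, with the log2 difference averaged over the day, high fat diet minus chow, on the x axis and the gene list on the y axis, with the number tested in brackets and vertical scatter only to separate points. Filled points have an adjusted p under 0.05 and black bars are medians. The bar lies at 0.23 for mitochondrial and other PPARA targets, at 0.14 for the 8 genes and at 0.11 for the other genes of peroxisomal oxidation.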

How the data were processed

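Liver RNA of 36 samples was measured on Affymetrix arrays. The authors deposited a linear intensity for each of 35556 probe sets, made with Affymetrix Expression Console 1.1.1 and PLIER 2.0, per the submitters' processing notes. How they were background-corrected and normalized is not given in the sources used here. Annotation tables paired 21789 probe sets with 1 gene, 1621 with several and named none for 12146, and 99.6% of single-gene symbols were updated by entrez identifier. The brightest probe set stood for each of 19938 genes. Genes above the 30th percentile of mean log2(intensity + 16), 6.11, were tested, which left 13956, all 8 genes of interest among them. Fits used limma 3.58.1 in R 4.3.3 with 12 group means (24 residual degrees of freedom), or a mean and a 24 h wave per diet. They were tested on simulated data. The number of arrays limits precision. No 2 arrays of a group were identical. The members and lists were chosen with earlier results of these data known. Named genes of the other lists are up to 4 called per direction with the smallest p, Ppara, and the genes of highest likeness. Acad11, Acnat1, Acot3 and Crot were chosen after their values were seen. Alternatives covered scaling, filter, probe sets, offset, replicate block, array weights, variance prior and leaving out arrays. Listed genes that were not tested are not analysed here.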

Additional observations from a re-analysis of the deposited data

Results flagged for a closer look

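Hacl1 drew a closer look because its diet difference was not the same at the 6 times, by an F test of the difference between times (limma, adjusted p = 0.00118). On the log2 scale it stood at -0.58 at ZT8, which limma called (adjusted p = 0.00224), and at 0.33 at ZT12, short of a call (0.0525). All 3 high fat diet samples lay below all 3 chow samples at ZT8 and above them at ZT12. High fat diet samples lay above in this way for 11.7% of all genes at ZT12, and the share below at ZT8 was not computed.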

How the results depend on the processing

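There were 47 alternatives, 36 of them leaving out 1 array. Over 4136 comparisons the 88 results for single genes reversed in 0, lost a call in 75 and gained one in 51. A sign changed in 42 more, where neither value was called. Amplitudes and adjusted p-values are among the 88 and, having no sign, could not reverse. Leaving out an array of another time cannot change a difference at a single time, only its p-value. The count of 0 reversals was thus partly fixed in advance. With array weights 18 of 48 pairs of gene and time were called instead of 8, and 3 genes instead of 1 had a diet difference that varied over times; the cause was not tested. The wave difference was called for 1 gene, Hacl1, instead of 0 after quantile normalization, median centring, a filter at the 50th percentile, an offset of 64, array weights or a trended robust prior. Leaving out 1 array gave 4 to 5 called genes for the average, 5 to 10 pairs of gene and time (5 without replicate 3 of chow or replicate 1 or 2 of high fat diet at ZT4), 1 to 2 genes varying over times (2 without replicate 1 of high fat diet at ZT0), and 1 to 3 rhythmic genes on high fat diet (1 without replicate 3 at ZT0 or 2 at ZT12). It gave 2 to 4 on chow (2 without replicate 1 or 2 at ZT12), 0 to 1 for the wave difference and 16 to 17 other genes of peroxisomal oxidation. With the replicate number as a block, the counts were 5, 9, 1, 3, 4, 0 and 16 in that order, and Ech1 at ZT20 gained a call (adjusted p = 0.0456). Samples of the 2 diets with the same number and time had correlated deviations (over 0.1) in 5 of 18 pairs, with a range from -0.412 to 0.350. The labels do not say whether the numbers pair the samples, and these correlations cannot decide it. The wave difference gained its call without replicate 2 of high fat diet at ZT0 or ZT8, 1 or 2 at ZT4, or 3 at ZT20, or without replicate 2 of chow at ZT4 or ZT20 or 1 or 2 at ZT16, leaving out 1 each time. The precision of each value is limited by 3 arrays per group.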

Other observations

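Several peroxisomal oxidation genes beyond the 8 also followed a daily wave. Of the 26 tested, 6 were called rhythmic on high fat diet and 13 on chow, where 11.0% and 20.6% of all genes were called. Crot, which attaches carnitine to medium chain acyl groups that leave the peroxisome, had amplitudes of 0.35 on high fat diet and 0.44 on chow (adjusted p = 3.03e-06 and 2.54e-08), with peaks at ZT0.625 and ZT2.82. Acot3, a peroxisomal thioesterase, had amplitudes of 1.01 on high fat diet and 0.999 on chow (adjusted p = 0.0316 and 0.0216) and peaked at ZT13.2 and ZT14.4. Acnat1, of the same family as Acnat2, peaked at ZT20.7 on high fat diet and ZT23.7 on chow (adjusted p = 0.0203 and 0.0107). Acad11, an acyl-CoA dehydrogenase, was called on chow (adjusted p = 0.0355) and not on high fat diet (0.862), and the wave difference was not called (adjusted p = 0.689).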
